A study of Mus musculus with 13 samples.

Results

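The TRIM (tripartite motif) genes were followed in 4T1 tumors from mice given cyclophosphamide (CPA), a DNA-alkylating prodrug that the liver activates. Members were the rows of the deposited expression table whose symbol is TRIM followed by a number and at most 1 letter, which gave 66 genes of 24170. Family members that carry other names, such as Pml, are not among the 66.

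4T1 is a mouse mammary carcinoma line from the BALB/c strain, and its cells were placed into a mammary fat pad of BALB/c females. By the labels CPA was given at 130 mg/kg in each cycle, although the study's texts are not uniform on the dose. The study describes dosing every 6 days, and vehicle mice received PBS. Labels name 3 libraries after 2 CPA cycles and 3 after 4 cycles, then 2 after 7 cycles, 2 from regrowing tumors left untreated for 18 days after 4 cycles, and 3 from vehicle mice, each made from RNA pooled over 2 to 3 tumors. By the labels, the 7 cycle and regrowth mice were 14 to 15 weeks of age, the 4 cycle mice 12 to 13 weeks, and the 2 cycle mice, like the vehicle mice, 10 to 11 weeks. Age and treatment history therefore cannot be told apart in any comparison except 2 cycles with vehicle. The table used here holds 1 FPKM value (fragments scaled to gene length and to library total) per gene and group, so no SD, n or p-value stands beside a value, and no difference below was tested against the spread between pools. The epithelial markers Krt8 and Krt18 lay between 262 and 421 FPKM in the 5 groups, and Cdh1 between 16.8 and 23.4 FPKM. Epcam was less steady, at 72.6 FPKM in vehicle tumors, 55.2, 81.1 and 129 after 2, 4 and 7 cycles and 148 in regrowth. Krt19 rose from 12.7 FPKM in vehicle tumors to 26.8 after 7 cycles. The pan-leukocyte marker Ptprc ranged from 6.81 to 11.5 FPKM. In such whole-tumor RNA, fewer cells of a type and less RNA per cell cannot be told apart.

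TRIM proteins typically share a RING domain, B-box zinc fingers and a coiled coil, though some lack the RING domain. Most act as E3 ubiquitin ligases, which attach ubiquitin to other proteins. Many regulate the sensing of foreign or misplaced nucleic acid and the type I interferon (IFN) signalling that follows, and a subset are themselves IFN-stimulated genes (ISGs). Others work in transcriptional repression, in the sarcomere of striated muscle, or in epithelia, neurons and germ cells. Many IFN-stimulated genes carry the IFN-stimulated response element (ISRE), a pair of GAAA blocks a few bases apart.

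Start-site sequences show where such a pair of blocks lies in the TRIM genes. RefSeq promoter windows on GRCm38.p6, running from 250 bases before to 50 bases after each start, were found for 51 of the 66 genes, in 65 windows. They were searched on both strands for GAAANNGAAA, where N is any base. On the opposite strand the match reads as a pair of TTTC blocks, and matches may overlap each other. Of the 51 genes, 8 (15.7%) held a match, against 3.99% of the 27025 genes in the promoter table. Of the genes with a match, 5 belong to the Trim5 cluster of duplicated genes on chromosome 7, so the share does not describe the family as a whole. By window, 9 of 65 TRIM windows held one, and 3.44% of all 32851 windows did. A match is a description of the letters and not a mapped binding site. The stretches below were chosen because Trim30a and Trim30d were past 2-fold under treatment, Trim12c is their neighbour, and Trim30b is a close relative below 0.1 FPKM in these tumors. Each runs 5′ to 3′ along the gene, from 100 bases to 1 base before the start, with the match in capitals, and all lie on the minus strand at chr7:104465194-104465293 (Trim30a), chr7:104507850-104507949 (Trim30d), chr7:104353350-104353449 (Trim12c) and chr7:104358647-104358746 (Trim30b).
Trim30a: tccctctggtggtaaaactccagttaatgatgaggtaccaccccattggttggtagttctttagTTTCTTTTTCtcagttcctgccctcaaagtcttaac
Trim30d: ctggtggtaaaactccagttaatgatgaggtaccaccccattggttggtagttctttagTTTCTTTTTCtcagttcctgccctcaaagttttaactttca
Trim12c: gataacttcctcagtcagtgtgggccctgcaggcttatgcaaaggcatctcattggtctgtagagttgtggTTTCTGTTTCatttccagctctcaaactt
Trim30b: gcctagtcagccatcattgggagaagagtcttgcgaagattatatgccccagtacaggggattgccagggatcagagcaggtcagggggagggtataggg

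In Trim30a the match began 36 bases before the start, in Trim30d 41 bases and in Trim12c 29 bases. Only 0.983% of all windows held a match lying wholly within 100 bases before the start. The Trim30a and Trim30d stretches shared an unbroken run of 89 bases that includes the match, whereas Trim12c shared no run longer than 7 bases with either. Trim30b held no match in its window. Trim26, an IFN pathway gene on chromosome 17, held 2 overlapping matches that began 160 and 154 bases before its start, on the plus strand at chr17:36836966-36837025, shown here from base 180 to base 121 before the start.
Trim26: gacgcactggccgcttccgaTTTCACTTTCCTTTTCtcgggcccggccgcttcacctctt

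In Trim21, Trim34a, Trim12a, Trim2 and a second start of Trim30a the match lay in the first transcribed bases, beginning 14 and 20 bases into Trim21, 11 into Trim34a and Trim12a, 29 into 1 of the Trim2 windows and 3 into Trim30a.

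By level, 29 of the 66 genes stood at 1 FPKM or more in all 5 groups, 8 reached 1 FPKM in some groups, and 29 stayed below 1 FPKM in all. Of the last, 23 stayed below 0.1 FPKM. Trim31, Trim42, Trim52, Trim60 and Trim61 were listed at 0 throughout. Trim28, the corepressor (also called KAP1) that zinc finger proteins recruit to silence retroelements, was the most abundant member in each group at 53.5 to 60.3 FPKM. Trim8, Trim35, Trim59 and Trim47 followed, and with Trim28 they were the 5 members at 10 FPKM or more in all groups. Over the 29 genes expressed throughout, the log2 span between the highest and lowest group had a median of 0.37, and over the 10710 genes of the table at that level it was 0.45. For 21 of the 29 the span was under 1.5-fold, and for 2, Trim30a and Trim56, it exceeded 2-fold.

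**Figure D1:**
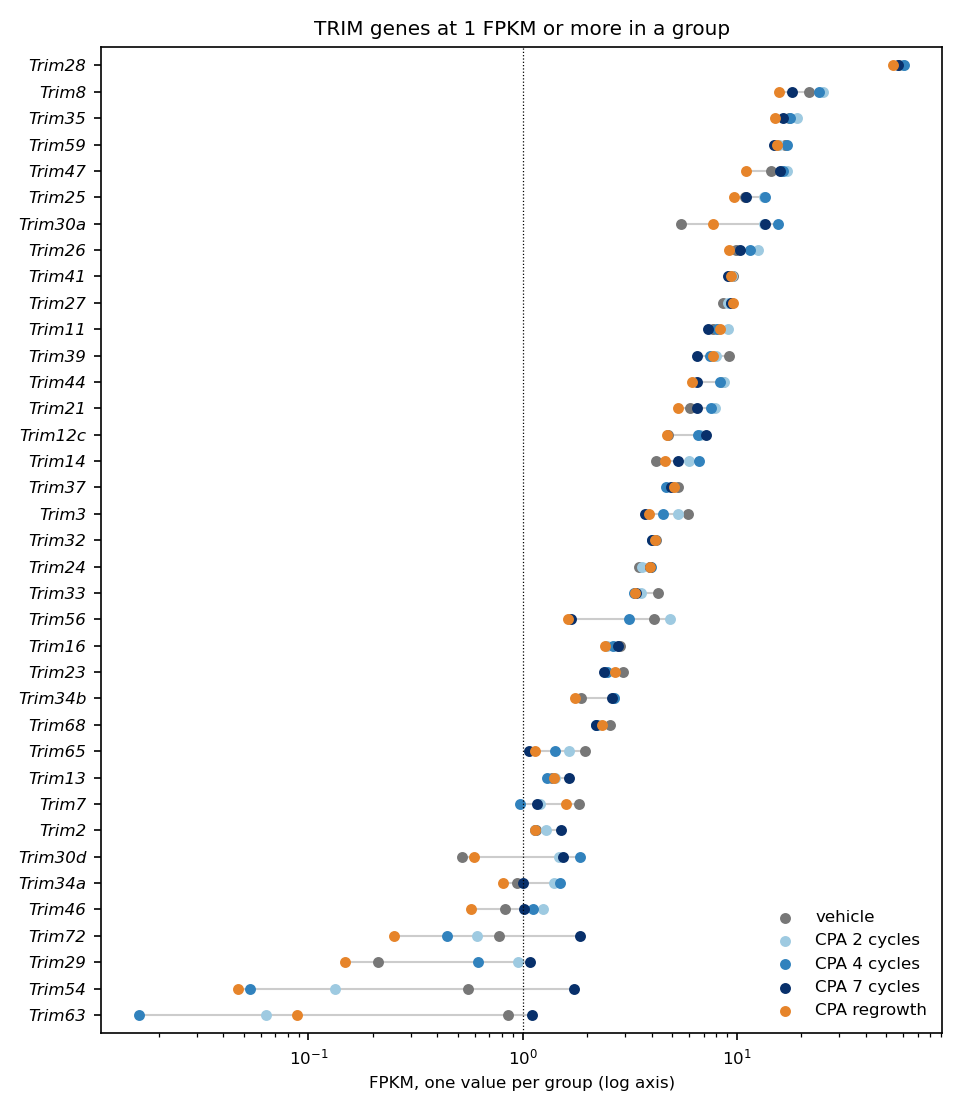
FPKM of the 37 TRIM genes at 1 FPKM or more in at least 1 group, on a log axis, with 1 point per group (the authors' group value, no replicate error) and a gray line from lowest to highest. Most rows are narrow, while Trim30a, Trim30d, Trim56, Trim29, Trim54, Trim63 and Trim72 are wide.

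Differences were expressed as log2 fold changes of FPKM + 0.1, which understates the change of low genes. A gene was counted as higher or lower where it was past 2-fold and reached 1 FPKM in the higher of the compared groups. After 2 cycles against vehicle, 2 of 33 measured members were higher, Trim30a and Trim30d, where 3.23% of all 11711 measured genes were higher, and no member was lower against 0.811% of all genes. After 4 cycles the same 2 of 33 were higher, with a background of 3.65%, and again none was lower, with a background of 1.6%. After 7 cycles 5 of 37 were higher (background 4.77%), namely Trim29, Trim30a, Trim30d, Trim54 and Trim72, and Trim56 was lower (background 3.09%). In regrowth against vehicle none of 30 was higher (background 1.72%) and Trim56 was lower (background 2.3%). In regrowth against 4 cycles none of 33 was higher (background 0.985%) and Trim30a and Trim30d were lower (background 4.31%). Across the 5 comparisons, 6 of the 66 genes were past 2-fold. The family's median log2 fold change after 2, 4 and 7 cycles was 0.07, 0.03 and 0.02, beside 0.04, 0.06 and 0.00 over all genes measured. In regrowth it was -0.12 against vehicle and -0.21 against 4 cycles, beside -0.01 and -0.06 over all genes. The 4 comparisons with vehicle share the vehicle value and are not independent of each other.

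**Figure D2:**
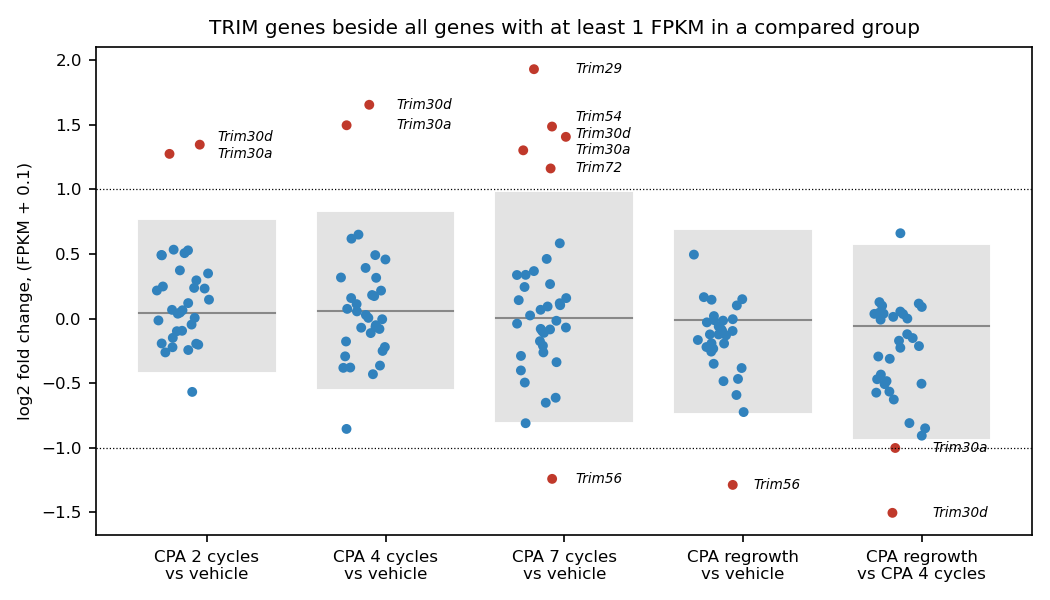
Log2 fold change of each TRIM gene with at least 1 FPKM in a compared group (points), in 5 comparisons of group values. Red points are past 2-fold (dotted lines), and the gray box spans the 5th to 95th percentile of all measured genes with their median as a line. Trim30a and Trim30d stand above the box in the first 3 comparisons, and most other points lie within it.

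The Trim5 cluster on chromosome 7 holds the rodent relatives of the primate retroviral restriction factor TRIM5. In the table it ran on mm9 from Trim6 (from 111367308) to Trim30d (to 111656363) and had 8 members, of which 5 reached 1 FPKM in a group. Trim30a (chr7:111557539-111613707, mm9), which in mouse macrophages dampens NF-κB signalling by promoting loss of the adaptors Tab2 and Tab3, stood at 5.46 FPKM in vehicle tumors, 13.4 after 2 cycles, 15.6 after 4, 13.6 after 7 and 7.74 in regrowth. The 3 groups under treatment were all above the vehicle and regrowth values. Relative to vehicle this was 2.42-fold after 2 cycles, 2.82-fold after 4, 2.47-fold after 7 and 1.41-fold in regrowth, and regrowth lay only just past 2-fold below 4 cycles, which a pseudocount of 1 FPKM turned into -0.93 on the log2 scale, short of the limit. Trim30d (chr7:111618528-111656363, mm9), a neighbouring copy, gave 0.522 FPKM in vehicle tumors, 1.48 after 2 cycles, 1.86 after 4, 1.55 after 7 and 0.591 in regrowth. Its order of groups was that of Trim30a at a lower level, with log2 fold changes over vehicle of 1.35, 1.66, 1.41 and 0.15. Regrowth was 2.84-fold below 4 cycles for Trim30d. With a pseudocount of 1 FPKM, Trim30d was no longer past 2-fold in any comparison.

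The other expressed cluster genes differed less. Trim12c, which in mouse cells promotes NF-κB and IFN signalling, was at 4.77 FPKM in vehicle tumors, 6.75 after 2 cycles, 6.58 after 4, 7.19 after 7 and 4.73 in regrowth. Its 3 treated values again lay above both others, at log2 fold changes of 0.46 to 0.58 that did not reach 2-fold. Trim34a was at 0.938 FPKM in vehicle tumors, 1.40, 1.49 and 1.01 after 2, 4 and 7 cycles and 0.810 in regrowth. Trim34b was at 1.87 FPKM in vehicle tumors, 2.67, 2.67 and 2.62 after 2, 4 and 7 cycles and 1.76 in regrowth. Trim6 lay between 0.477 and 0.655 FPKM in all groups, and Trim12a and Trim30b stayed below 0.1 FPKM. Summed over the 8 genes, the cluster amounted to 14.1 FPKM in vehicle tumors, 26.2 after 2 cycles, 28.9 after 4, 26.7 after 7 and 16.1 in regrowth. These genes are recent duplicates, and the share of the 50-base stretches in their GENCODE transcripts that also occurs in another gene bears on how surely reads can be assigned. It was 5.98% for Trim30a and 7.49% for Trim30d, which leaves most of each gene distinct. For Trim12c it was 33.0%, mostly with Trim5, which is not analysed here, and for Trim34a and Trim34b 39.8% and 56.8%, each with the other, so the split between Trim34a and Trim34b is uncertain.

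Beside the cluster, all 8 of the fixed ISG markers (Rsad2, Ifit1, Ifit3, Oasl1, Isg15, Mx1, Cmpk2 and Usp18) were past 2-fold over vehicle after 2, 4 and 7 cycles (backgrounds 3.23%, 3.65% and 4.77%). All 8 were past 2-fold lower in regrowth than after 4 cycles (background 4.31%). Rsad2, an antiviral enzyme, was at 0.998 FPKM in vehicle tumors, 6.52, 8.33 and 7.08 after 2, 4 and 7 cycles and 1.62 in regrowth. The list's median log2 fold change over vehicle was 2.33, 2.65 and 2.55 after 2, 4 and 7 cycles, above that of Trim30a or Trim30d in each comparison. In regrowth the list's median was 0.74, and all 8 still lay above vehicle. Leukocyte markers moved partly with these values. The summed level of 5 (Ptprc, Cd68, Itgam, Cd8a and Nkg7) was 39.5 FPKM in vehicle tumors, 66.6, 62.0 and 37.6 after 2, 4 and 7 cycles and 29.4 in regrowth, most of it from Cd68, Itgam and Ptprc. After 7 cycles these 3 lay below vehicle, while the lymphocyte genes Nkg7 and Cd8a stood 2.47-fold and 1.67-fold above it. The part of leukocyte content in the Trim30a and Trim30d values was not tested.

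Of the 12 regulators of nucleic acid sensing outside the cluster, 11 reached 1 FPKM, and none was past 2-fold above vehicle in any group. Trim14, an adaptor that in human cells joins the mitochondrial sensor platform MAVS, came nearest, with 4.19 FPKM in vehicle tumors, 6.00 after 2 cycles, 6.64 after 4, 5.33 after 7 and 4.65 in regrowth. Trim25, the ligase known for activating the RNA sensor RIG-I, was at 10.9 FPKM in vehicle tumors, 13.4, 13.6 and 11.1 after 2, 4 and 7 cycles and 9.70 in regrowth. Trim21, a cytosolic antibody receptor, was at 6.06 FPKM in vehicle tumors, 7.88, 7.56 and 6.52 after 2, 4 and 7 cycles and 5.29 in regrowth. These genes had their highest value after 2 or 4 cycles and, for Trim21 and Trim25, their lowest in regrowth. Trim26, which targets Irf3, followed Trim21 and Trim25, with 9.87 FPKM in vehicle tumors, 12.6 after 2 cycles and 9.24 in regrowth.

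Trim56 was the 1 member of this group past 2-fold, in the downward direction. This ligase enhances signalling through the DNA-sensing cGAS-STING pathway. Trim56 (chr5:137587155-137592077, mm9) was at 4.12 FPKM in vehicle tumors, 4.88 after 2 cycles, 3.14 after 4, 1.69 after 7 and 1.63 in regrowth. The 7 cycle and regrowth groups, which hold the oldest mice, had nearly equal values, 2.36-fold and 2.44-fold below vehicle, while the 2 cycle group was the highest of the 5. With a pseudocount of 1 FPKM these 2 differences were -0.93 and -0.96 on the log2 scale, just short of 2-fold. The same 2 groups also had only 2 libraries each. They held the highest Epcam (129 and 148 FPKM) and the lowest Itgam (8.36 and 5.93 FPKM) of the 5. Among the other leukocyte markers, Ptprc and Cd68 were also lowest there. Cd8a (1.28 and 1.13 FPKM, vehicle 0.724) and Nkg7 (4.24 and 2.16 FPKM, vehicle 1.65) lay above vehicle in both groups. The part of age or of cell content in the Trim56 values was not tested. Trim65, which promotes signalling by the RNA sensor MDA5, was likewise lowest in the 7 cycle and regrowth groups but short of 2-fold, with 1.95 FPKM in vehicle tumors, 1.65 after 2 cycles, 1.42 after 4, 1.07 after 7 and 1.14 in regrowth. Trim8, a regulator of cytokine signalling that binds Socs1, was at 21.7 FPKM in vehicle tumors, 25.3, 24.3 and 18.1 after 2, 4 and 7 cycles and 15.7 in regrowth. Trim13, Trim23, Trim27 and Trim32 spanned log2 0.07 to 0.32 over the 5 groups, and Trim38, which restrains Toll-like receptor signalling in macrophages, stayed below 0.1 FPKM.

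**Figure D3:**
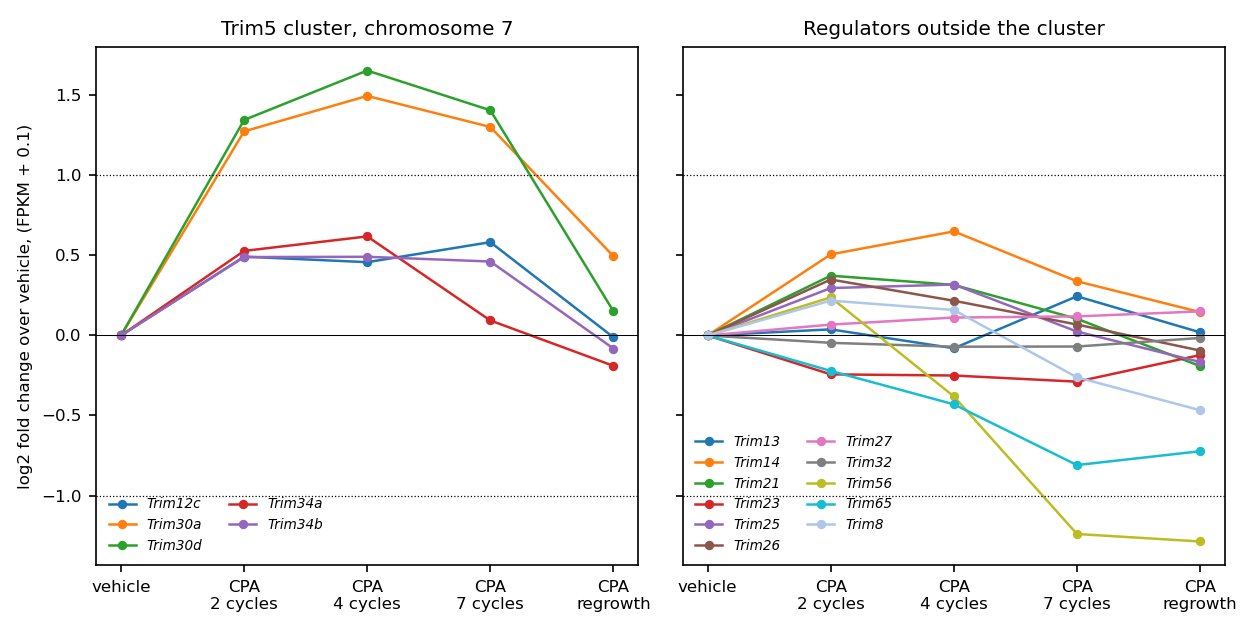
Log2 fold change over vehicle (FPKM + 0.1) of the expressed Trim5 cluster genes (left) and of the other regulators of nucleic acid sensing (right), with dotted lines at 2-fold. Trim30a and Trim30d lie above 1.2 after 2, 4 and 7 cycles and below 0.5 in regrowth, while Trim56 lies at -1.24 after 7 cycles and -1.29 in regrowth.

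Read against the sequence search, the 7 measured members with a GAAANNGAAA match (Trim30a, Trim30d, Trim12c, Trim34a, Trim21, Trim26 and Trim2) had a median log2 fold change of 0.49 after 2 cycles, with 7 of 7 above 0. The 18 measured members whose windows held no match had a median of 0.02, with 10 above 0. After 4 cycles the medians were 0.46 with a match and -0.06 without, after 7 cycles 0.37 and -0.02 (over 7 and 21 members), and in regrowth against 4 cycles -0.51 and 0.01. In regrowth against vehicle they were -0.01 and -0.12 (over 5 and 17 members), with 1 of the 5 above 0. With groups scaled to equal totals, Trim34a, Trim21 and Trim26 turned negative after 7 cycles, at -0.15, -0.16 and -0.20. That scaling also lowered the median of all measured genes after 7 cycles from 0.00 to -0.26, and it moves members with and without a match alike. Absence of a match did not go with absence of a difference in each gene, since Trim25 held none and stood at 0.30 after 2 cycles. Trim34b held none either and stood at 0.49, but its split from Trim34a, which holds a match, is uncertain. Trim14 had no window in the table. The share of windows and these medians are descriptions of few genes, several of them duplicates of each other.

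Of 23 partners and targets of TRIM proteins in IFN signalling, 7 were past 2-fold above vehicle after 2 cycles (background 3.23%) and none below (background 0.811%). The 7 were Irf7, Isg15, Usp18, Zbp1, Socs1, Dhx58 and Stat2. Isg15 and Usp18 are also among the ISG markers above, so the 2 lists are not separate. After 4 cycles 7 were higher (background 3.65%), after 7 cycles 5 (background 4.77%), and in regrowth 1, Usp18 (background 1.72%). The median log2 fold change of the list over vehicle was 0.51, 0.63, 0.21 and -0.02 after 2, 4 and 7 cycles and in regrowth. With groups scaled to equal totals the 7 cycle value turned to -0.06, beside a median of -0.26 over all measured genes. Irf7, the transcription factor that amplifies IFN production, was at 13.4 FPKM in vehicle tumors, 71.1, 76.0 and 67.3 after 2, 4 and 7 cycles and 20.3 in regrowth. RNA of Tab2, the adaptor whose protein Trim30a acts on, ranged from 13.9 to 15.9 FPKM, which does not show the protein's level. Tbk1 and Irf3, kinase and transcription factor of the sensing pathways, ranged from 11.4 to 13.8 and from 12.3 to 14.4 FPKM. In regrowth 9 of the 23 were past 2-fold below 4 cycles (background 4.31%) and none above (background 0.985%).

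The 4 striated muscle TRIM genes were all highest after 7 cycles, as were the skeletal muscle markers. Trim54 and Trim63 encode the sarcomeric proteins MuRF3 and MuRF1, Trim55 encodes MuRF2, and Trim72 encodes MG53, a membrane repair protein. Trim54 (chr5:31418984-31439999, mm9) was at 0.555 FPKM in vehicle tumors, 0.134 after 2 cycles, 0.0533 after 4, 1.74 after 7 and 0.0466 in regrowth. Trim63, the atrophy-associated ligase, was at 0.856 FPKM in vehicle tumors, 0.0636 after 2 cycles, 0.0162 after 4, 1.11 after 7 and 0.0884 in regrowth. Trim72 was at 0.772 FPKM in vehicle tumors, 0.609 after 2 cycles, 0.442 after 4, 1.85 after 7 and 0.251 in regrowth. Trim55 was at 0.127 FPKM after 7 cycles and below 0.1 FPKM elsewhere. Against vehicle, Trim54 was 2.80-fold and Trim72 2.24-fold higher after 7 cycles, and Trim63 was at 1.26-fold. With a pseudocount of 1 FPKM, Trim54 and Trim72 fell short of 2-fold, at 0.82 and 0.69 on the log2 scale, and with groups scaled to equal totals Trim72 did, at 0.91. After 4 cycles Trim54 and Trim63 had log2 fold changes of -2.10 and -3.04, but neither counted as lower because both stayed below 1 FPKM in both groups.

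All 9 skeletal muscle markers (Acta1, Ckm, Myh4, Tnnc2, Tnnt3, Atp2a1, Mybpc1, Actn3 and Myh1) had values above 0 in all 5 groups, down to 0.0425 FPKM for Mybpc1 after 4 cycles. All 9 were past 2-fold above vehicle after 7 cycles (background 4.77%), a group of only 2 libraries. Past 2-fold below vehicle were all 9 after 4 cycles (background 1.6%), 8 after 2 cycles (background 0.811%) and 7 in regrowth (background 2.3%). The rest lay below vehicle short of 2-fold. Their summed level was 72.3 FPKM in vehicle tumors, 24.6 after 2 cycles, 6.16 after 4, 410 after 7 and 24.8 in regrowth. Acta1, skeletal muscle actin, was at 23.0 FPKM in vehicle tumors, 7.95, 1.12 and 93.6 after 2, 4 and 7 cycles and 5.70 in regrowth. The 4 muscle TRIM genes summed to 2.23, 0.814, 0.519, 4.82 and 0.413 FPKM in the same groups. The part of muscle tissue in the excised tumors in these TRIM values was not tested.

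Trim29 (chr9:43118845-43144208, mm9), which is expressed in stratified epithelia and lacks a RING domain, had the largest log2 fold change of any member counted as higher. It was at 0.211 FPKM in vehicle tumors, 0.956 after 2 cycles, 0.617 after 4, 1.08 after 7 and 0.148 in regrowth, with log2 fold changes over vehicle of 1.77, 1.21, 1.93 and -0.33. It passed the 1 FPKM minimum only after 7 cycles, where a pseudocount of 1 FPKM left a log2 fold change of 0.78, short of 2-fold. The 7 cornified or basal epithelial markers (Krt5, Krt14, Krt1, Krt10, Lor, Trp63 and Krt6a) summed to 27.6 FPKM in vehicle tumors, 81.8 after 2 cycles, 51.7 after 4, 109 after 7 and 36.4 in regrowth. Except after 2 cycles most of this was Krt14, at 25.5 FPKM in vehicle tumors, 37.5, 44.1 and 84.1 after 2, 4 and 7 cycles and 33.9 in regrowth. After 4 cycles Krt1, Krt10, Lor and Krt6a lay below vehicle, and Krt5, Krt14 and Trp63 above it. Krt5, a basal keratin, was at 0.350 FPKM in vehicle tumors, 6.99, 5.39 and 10.8 after 2, 4 and 7 cycles and 0.626 in regrowth. The cornified genes Krt1 and Lor were highest after 2 cycles, at 11.9 and 6.01 FPKM, and were below 0.1 FPKM after 4, where Trim29 stood at 0.617. The part of skin or squamous epithelium in the Trim29 values was not tested.

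Among the other epithelial members, Trim47 was highest after 2 cycles at 17.2 FPKM and lowest in regrowth at 11.1 FPKM, with 14.5 FPKM in vehicle tumors, and Trim16 ranged from 2.42 to 2.86 FPKM. Trim15, Trim31 and Trim40 were below 0.1 FPKM in each group. The erythroid members Trim10 and Trim58 stayed below 0.1 FPKM, while the 7 erythroid markers found, chiefly the globins Hbb-b1 and Hba-a1, summed to 35.9 FPKM in vehicle tumors, 99.0, 120 and 153 after 2, 4 and 7 cycles and 32.3 in regrowth.

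**Figure D4:**
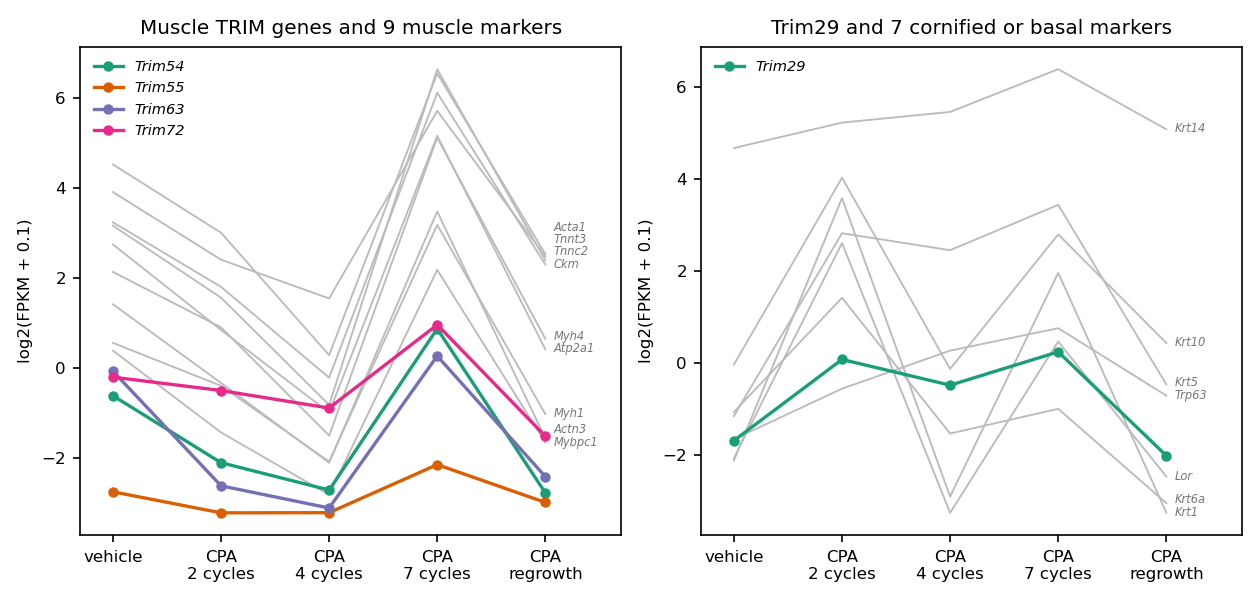
Log2(FPKM + 0.1) by group of the 4 muscle TRIM genes (colored) with 9 skeletal muscle markers (gray) on the left, and of Trim29 with 7 cornified or basal epithelial markers (gray) on the right. The muscle TRIM genes and all 9 muscle markers peak after 7 cycles, and Trim29 lies above vehicle after 2, 4 and 7 cycles.

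The chromatin regulators were level. Trim28 was at 57.2 FPKM in vehicle tumors, 59.9, 60.3 and 56.6 after 2, 4 and 7 cycles and 53.5 in regrowth. Trim24, a bromodomain coregulator of nuclear receptors, ranged from 3.505 to 3.968 FPKM. Trim33, which acts with Smad proteins in TGF-β signalling, was at 3.31 to 3.56 FPKM in the CPA groups, against 4.29 FPKM in vehicle tumors, and Trim66, a testis-enriched relative, stayed below 0.1 FPKM.

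Of the 9 neuronal, cytoskeletal and germ line members, 3 reached 1 FPKM. Trim3, a neuronal ligase, was lower in each CPA group than in vehicle tumors without reaching 2-fold, with 5.92 FPKM in vehicle tumors, 5.33 after 2 cycles, 4.53 after 4, 3.73 after 7 and 3.90 in regrowth. Trim2, a ligase for neurofilament light chain, ranged from 1.15 to 1.52 FPKM. Trim46, which organizes microtubules at the axon start, was at 0.826 FPKM in vehicle tumors, 1.24, 1.12 and 1.01 after 2, 4 and 7 cycles and 0.575 in regrowth.

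Members in none of these groups numbered 21, of which 9 reached 1 FPKM in a group and none was past 2-fold. Trim7, a ligase first found as a partner of glycogenin, had the widest span, with 1.83 FPKM in vehicle tumors, 1.204 after 2 cycles, 0.969 after 4, 1.16 after 7 and 1.59 in regrowth. Trim39 was at 9.24 FPKM in vehicle tumors, 8.02, 7.53 and 6.53 after 2, 4 and 7 cycles and 7.72 in regrowth. Trim44 was at 8.66 FPKM in vehicle tumors, 8.69, 8.35 and 6.53 after 2, 4 and 7 cycles and 6.16 in regrowth. Trim35, Trim59, Trim11, Trim37, Trim41 and Trim68 spanned log2 0.08 to 0.34. Trim41 was among the flattest members of the family at 9.11 to 9.63 FPKM, next to Trim32 at 4.00 to 4.21 FPKM.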

How the data were processed

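Polyadenylated RNA of 13 tumor pools was sequenced by the authors with stranded kits. The submitters' processing notes list the tools TopHat2, featureCounts and edgeR with mouse build mm9, while versions and gene annotation were not given in the sources used here. In the deposited table are the authors' FPKM, 1 value per gene and group, and for each comparison with vehicle their ratio, fold change and p-value, 12 columns that were not used. Values per library and depth were not used here, so a spread between pools, a test and an interval could not be computed. Of 1175 genes between 0 and 0.02 FPKM after 2 cycles and in vehicle, 35 shared 1 ratio to 4 decimals, as sums of whole reads would give, but no depth was recovered. Low FPKM rest on few reads.

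Of 24197 rows, 27 with a date for a symbol were left out. Log2 fold changes used a pseudocount of 0.1 FPKM. Calls needed 2-fold and at least 1 FPKM in the higher group.  Alternatives were a pseudocount of 1 FPKM, no FPKM minimum, and each group rescaled to equal totals. All members past 2-fold and all members of the role lists at 1 FPKM or more were named where they carry a result. From 2 of the fixed lists, 1 gene each is not reported here. The members, lists, motif and thresholds were chosen with earlier results of these data known. Python 3.11.15, pandas 2.3.3 and matplotlib 3.10.9 were used. Promoter windows are from RefSeq (GRCm38.p6), transcripts from GENCODE, and gene coordinates from the table (mm9).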

Additional observations from a re-analysis of the deposited data

How the results depend on the processing

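No paired analysis was possible because the table holds 1 value per group, and leaving out a pool could not be done for the same reason. With a pseudocount of 1 FPKM, the members higher than vehicle numbered 1 after 2, 4 and 7 cycles (Trim30a), and those lower numbered 0 after 7 cycles, 0 in regrowth and 0 in regrowth against 4 cycles. With no FPKM minimum, 3 members were higher after 2 cycles and 3 after 4 (Trim29 joined), 2 were lower after 2 cycles and 2 after 4 (Trim54 and Trim63), 4 in regrowth against vehicle (with Trim56 and Trim72) and 4 in regrowth against 4 cycles (Trim29, Trim30a, Trim30d and Trim69). With each group rescaled to a total of 1000000, 3 were higher after 2 cycles, 3 after 4 and 4 after 7 (without Trim72), and 2 were lower after 2 cycles, 3 after 4 (Trim54, Trim63 and Trim7), 2 after 7 (Trim56 and Trim65), 4 in regrowth against vehicle and 5 in regrowth against 4 cycles. As deposited totals are 214214 to 258724 FPKM, that setting also lowers the effective minimum and pseudocount, and Trim54 and Trim63 were lower without the minimum alone. An alternative chosen after seeing the data rescaled each group to the mean total of the 5 and so kept both. It gave 3 higher after 2 cycles, 1 lower after 4 cycles (Trim7), and 3 higher (Trim30a, Trim30d and Trim54) and 2 lower (Trim56 and Trim65) after 7 cycles. Over the same genes it put the median log2 fold change over vehicle at -0.04, -0.09, -0.26 and -0.24 after 2, 4 and 7 cycles and in regrowth, against 0.04, 0.06, 0.00 and -0.01 as deposited. Under it, Trim29 after 7 cycles was at 1.72 but below the minimum, and Trim30a stayed past 2-fold after 2, 4 and 7 cycles, at 1.03 after 7. Among the members linked to IFN signalling, Trim34a, Trim13, Trim21, Trim25, Trim26 and Trim27 changed sign under it after 7 cycles, to between -0.01 and -0.25. No call of the 6 members past 2-fold changed sign in these 4 alternatives, but a pseudocount or a minimum cannot change a sign. With a pseudocount of 1 FPKM, 10 calls among these members fell short of 2-fold. The deposited values limit what can be said of members below 1 FPKM, which rest on few reads.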

Other observations

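TRIM proteins that carry other names were measured beside the family. Pml, the organizer of the nuclear bodies that bear its name and itself an ISG, was at 5.96 FPKM in vehicle tumors, 9.25 after 2 cycles, 8.08 after 4, 6.88 after 7 and 5.19 in regrowth, short of 2-fold throughout. Mefv, which encodes pyrin, an inflammasome sensor of myeloid cells, was at 0.743 FPKM in vehicle tumors, 2.50 after 2 cycles, 1.55 after 4, 1.03 after 7 and 0.451 in regrowth. It was 3.08-fold higher after 2 cycles than in vehicle tumors. Mid1, a microtubule-binding ligase, was at 3.76 FPKM in vehicle tumors, 2.77 after 2 cycles, 2.32 after 4, 2.03 after 7 and 1.45 in regrowth, which was past 2-fold below vehicle. Mid2 ranged from 0.417 to 0.731 FPKM. The pseudogene Trim30e-ps1 and the TRIM-like gene Triml2 were listed at 0 in all groups.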
